A study of Mus musculus with 24 samples.

Results

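The mitochondrial respiratory chain is described here through 42 genes for its subunits, picked by name, in cultured mouse muscle precursor cells. A gene counted as measured where at least 1 probe set of the array was assigned to it and to no other gene, and the probe set with the highest mean over all arrays stood for it. By this rule 41 of the 42 were measured, among 12394 genes in all, and Cox7b was not measured. They were 23 subunits of complex I, the 4 of complex II, 5 of complex III, cytochrome c, 5 subunits of complex IV found throughout the body and 3 muscle isoforms of complex IV. All 41 passed a filter that kept 8125 genes, which asked that the signal pass the array's 40th percentile at least 3 times among the 24. The muscle isoforms passed it through the groups in which they were high.

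The series asks how loss of ciliogenesis bears on myoblast quiescence. C2C12, an established line of mouse myoblasts that can leave the cell cycle reversibly or fuse into myotubes, received siRNA against IFT88 (IFT88KD cells) or a negative control siRNA (control cells). IFT88 is a protein of intraflagellar transport, which cells need to build a cilium. The 24 RNA samples were hybridised to 1 Affymetrix mouse array each, with 3 arrays in each of 8 groups. Both siRNAs were crossed with 4 states. Proliferating cells grew attached in DMEM with 20% FBS. Quiescent cells were held in suspension, and replated cells had been put back on a surface for 2 h, both with 20% serum. Differentiating cells had spent 48 h in medium with 2% horse serum.

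Levels are log2 values relative to the median of all genes on the same array, and a change is a difference of such levels with its standard error (SE) from limma. A change was called when its Benjamini-Hochberg adjusted p, over the 8125 genes, was under 0.05. The labels do not say that the 3 arrays of a group came from separate experiments, so the p-values measure the spread between these arrays, which may be technical. The number of arrays limits the precision.

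Electrons from NADH enter the chain at complex I and those from succinate at complex II, which is also an enzyme of the TCA cycle. They pass through complex III and the small carrier cytochrome c to complex IV, which reduces oxygen, and the proton gradient built on the way drives ATP synthase. Most subunits are encoded in the nucleus, and striated muscle replaces several subunits of complex IV by isoforms of its own. Muscle differentiation is known for a growth of mitochondrial content, and PGC-1alpha, encoded by Ppargc1a, is a coactivator of nuclear genes for mitochondria.

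The promoters of the genes with the largest fall (Cycs, cytochrome c) and the largest rise (Cox8b, a muscle isoform) are shown, since opposite changes of these genes recur in the results. Each is the 250 bases before the annotated start, from RefSeq on build GRCm38.p6, read 5′ to 3′ on the minus strand that carries the gene. Cox8b lies at chr7:140900447-140900696 and Cycs at chr6:50566570-50566819. Capitals mark CAGCTG in Cox8b, the letters of an E-box that myogenic factors are known to bind, and GCATGCG and ACGTCA on either strand in Cycs.
Cox8b: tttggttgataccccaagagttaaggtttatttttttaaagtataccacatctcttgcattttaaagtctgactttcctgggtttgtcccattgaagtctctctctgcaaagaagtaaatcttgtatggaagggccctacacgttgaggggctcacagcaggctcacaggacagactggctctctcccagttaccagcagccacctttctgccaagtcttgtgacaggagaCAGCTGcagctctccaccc
Cycs: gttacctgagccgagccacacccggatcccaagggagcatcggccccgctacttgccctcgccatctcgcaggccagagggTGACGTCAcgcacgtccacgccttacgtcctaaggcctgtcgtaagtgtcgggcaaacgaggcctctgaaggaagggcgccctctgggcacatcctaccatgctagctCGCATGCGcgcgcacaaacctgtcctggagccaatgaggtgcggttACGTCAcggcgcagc

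The E-box of Cox8b starts 19 bases before the annotated start. In Cycs, 1 overlapping pair of GCATGCG matches, 1 on each strand, starts 61 and 60 bases before the start. GCATGCG is the core of the element known for nuclear respiratory factor 1. The ACGTCA matches, the letters of a cyclic AMP response element, start 169, 167 and 15 bases before it, and the first 2 overlap. Of the 41 measured members 31 had a promoter in the table, and 4 of these held CAGCTG, which 13% of all 32851 promoters hold. A member counted when any of its promoters held the letters, while the share is over single promoters. A gene with several promoters thus had more chances to count. GCATGCG was in 4 of 31 and in 3.02% of all, and ACGTCA in 6 of 31 and in 6.47% of all. GCATGCG and ACGTCA were chosen after the Cycs window had been seen. Also searched were CCGGAAG for ETS factors, TGCGCA for nuclear respiratory factor 1 and AAGGTCA for estrogen-related receptors. None of these was in the Cox8b or the Cycs window. CCGGAAG was in 4 of 31 and in 6.91% of all, TGCGCA in 6 of 31 and in 6.43%, and AAGGTCA in 1 of 31 and in 4.08%. A match is a string of letters in a window, and binding was not measured.

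Facts of the arrays bear on every value below. The median signal of all genes, as group means of the deposited log2 values, was 4.34 to 4.35 for proliferating and 4.43 to 4.45 for differentiating cells, 4.57 to 4.58 for quiescent ones and 3.64 to 3.65 for replated ones. Within a state the siRNA groups thus lay close together, and between states the scale differed, most for replated cells. Each state change is therefore also given as deposited, after quantile normalisation, and centred on the median of the 8125 genes. Ift88 itself changed by -0.53 (SE 0.17, adjusted p = 0.384) in proliferating, -0.67 (SE 0.17, adjusted p = 0.0236) in quiescent, -0.60 (SE 0.17, adjusted p = 0.067) in replated and -0.03 (SE 0.17, adjusted p = 0.9998) in differentiating IFT88KD cells. All 3 replated IFT88KD arrays were under the 40th percentile for it, and its differentiating arrays overlapped between the siRNAs. All 8 myoblast markers, Myod1 and Des among them, were above that percentile in every group, and none of the 5 endothelial markers was in any. On all 3 arrays of a group, 1 to 3 of 6 fibroblast, 2 of 5 adipocyte, 1 to 3 of 10 macrophage and 0 to 1 of 4 epithelial markers were above it, depending on the group.

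In control cells most chain subunits fell from proliferation to quiescence and only the muscle isoforms and 2 complex I subunits rose. Of the 41 members, 32 (78.0%) fell and 5 (12.2%) rose, against 41.8% lower and 30.5% higher among all genes tested. The median change was -0.51 for the members and -0.12 for all genes. Under all 4 scalings at once 20 members fell and the same 5 rose. As deposited, after quantile normalisation and with centring on the 8125 genes, 20, 24 and 25 fell, against 30.7%, 36.8% and 34.2% of all genes. The 5 rises stood against 41.5%, 35.2% and 37.98%. The median change of the members was -0.27 as deposited, -0.32 after quantile normalisation and -0.35 with centring on the 8125 genes. The medians of all genes beside these were 0.12, -0.02 and 0.04.

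**Figure D1:**
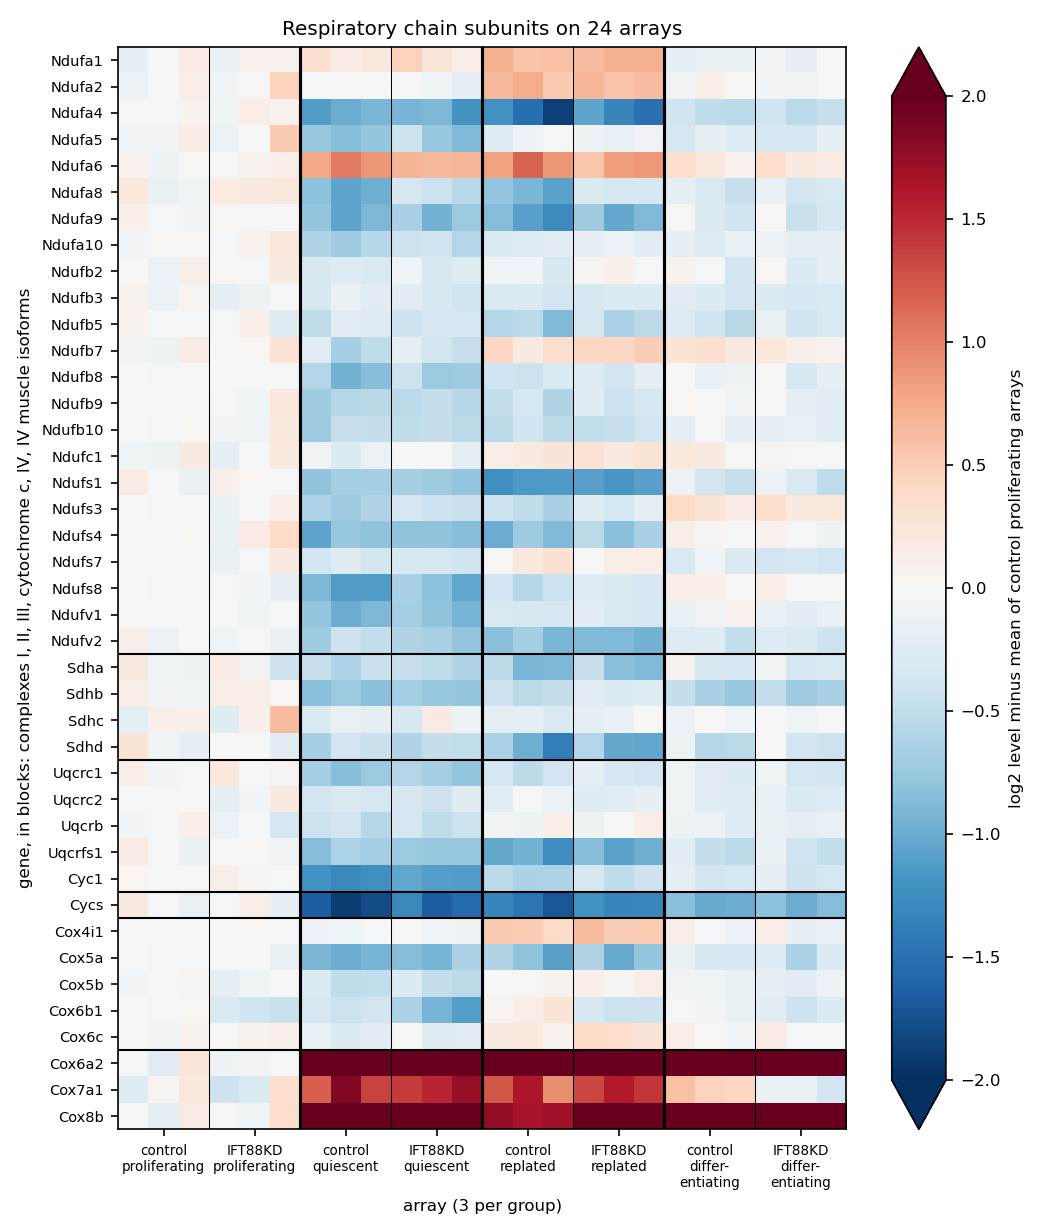
Each row is 1 of the 41 measured subunits and each column 1 of 24 arrays, in groups of 3. Colour gives the log2 level minus the mean of the gene's control proliferating arrays, clipped at 2 in either direction. Most rows are blue in the quiescent columns, Cycs deepest, while Cox6a2 and Cox8b are red outside proliferation.

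Cytochrome c, the carrier between complexes III and IV, fell most. Cycs stood at 5.69, 5.47 and 5.36 on the proliferating control arrays and at 3.86, 3.60 and 3.72 on the quiescent ones. The quiescent arrays were all far below the proliferating ones, a drop of 3.43-fold, or -1.78 on the log2 scale (SE 0.12, adjusted p = 1.46e-11). The other 2 probe sets of Cycs changed by -1.87 and -1.91. Cyc1, the heme-bearing cytochrome c1 of complex III, was at 5.54, 5.50 and 5.47 in proliferation and at 4.29, 4.22 and 4.28 in quiescence. Its arrays lay close together within either group. It fell by 1.24 on the log2 scale (SE 0.08, adjusted p = 1.36e-11).

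All 5 complex III genes fell in quiescent control cells, with a median of -0.72. Uqcrfs1, the Rieske iron-sulfur protein, changed by -0.72 and Uqcrc1, a core protein, by -0.75. Of these 5, Uqcrfs1, Uqcrc1 and Cyc1 fell under all 4 scalings.

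Complex I had 19 falls and 2 rises among 23 genes, with a median of -0.61. Among the falls were Ndufs8 (-1.04, SE 0.09), an iron-sulfur subunit of the arm that receives electrons, and Ndufa8 (-0.95, SE 0.11), an accessory subunit. Ndufv1, the subunit that binds NADH and flavin, changed by -0.89 and Ndufs1, the largest iron-sulfur subunit, by -0.72. Ndufa4 (-1.01, SE 0.13) was named with complex I and is now assigned to complex IV. These 5 fell under all 4 scalings.

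Ndufa6, an accessory complex I subunit, went the other way. It was at 4.26, 4.08 and 4.21 on the proliferating and at 4.96, 5.23 and 5.07 on the quiescent control arrays. No quiescent array overlapped the proliferating ones, and the rise was 0.90 (SE 0.11, adjusted p = 1.76e-07). Ndufa1 rose by 0.23 (SE 0.10, adjusted p = 0.0399), a call that was lost in 4 of 6 fits with 1 array left out. Ndufa2 (-0.03) and Ndufc1 (-0.15) were not called in control cells.

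Complex II fell in part. Sdhb, the iron-sulfur subunit, was at 4.72, 4.53 and 4.50 in proliferating and at 3.76, 3.84 and 3.75 in quiescent control cells, a change of -0.80 (SE 0.09, adjusted p = 4.40e-08). The groups did not overlap, and Sdhb fell under all 4 scalings. Sdha, the flavoprotein, fell by 0.51 on the log2 scale (adjusted p = 0.00458) and Sdhd, a membrane anchor, by 0.50 (adjusted p = 0.0162). Sdhd was called with the median of all genes as reference only, and Sdha under every scaling except the values as deposited. The other anchor, Sdhc, changed by -0.20 (adjusted p = 0.229).

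The body-wide subunits of complex IV fell less evenly. Cox5a changed by -0.94 (SE 0.13), Cox5b by -0.43, Cox6b1 by -0.39 and Cox6c by -0.22, and these 4 were called. For Cox5b 1 of the other probe sets changed in the opposite direction, here and in IFT88KD cells. Cox4i1, which helps set the regulation of the enzyme by ATP, changed by -0.08 (adjusted p = 0.399). Its arrays lay between 5.86 and 5.88 in proliferating and between 5.75 and 5.82 in quiescent control cells. As deposited, Cox5a was the only 1 of the 5 that fell.

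The muscle isoforms of complex IV rose in quiescent control cells. Cox8b was at -2.65, -2.84 and -2.49 in proliferation, under the 40th percentile on all 3 arrays, and at 0.15, -0.36 and -0.15 in quiescence. Cox6a2 was at -1.71, -1.90 and -1.44 and then at 0.83, 0.56 and 0.65. Cox7a1 was at -2.93, -2.61 and -2.45 and then at -1.47, -0.81 and -1.31, with 2 of the 3 quiescent arrays above the percentile. The groups of each gene lay apart, although the starting signals were low, which makes the size of the rise less certain than its direction. All 3 genes passed the filter through groups in which they were high, so it favoured rises over proliferation. Without a filter their rises were called as well. The rises were 2.54 for Cox8b (SE 0.17, adjusted p = 2.32e-11), 2.36 for Cox6a2 (SE 0.19, adjusted p = 4.17e-10) and 1.47 for Cox7a1 (SE 0.19, adjusted p = 7.74e-07).

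Their body-wide partners fell or were not called. Cox6a1 changed by -0.49 (adjusted p = 2.85e-05), Cox7a2 by -0.40 (adjusted p = 1.82e-04) and Cox8a by -0.23 (adjusted p = 0.0583). In the same comparison 9 of 12 myotube markers rose, with a median of 1.79, and their mean level was -1.33 to 0.86 on the proliferating and 1.37 to 1.91 on the quiescent control arrays. All 8 myoblast markers fell, with a median of -1.14. Markers of other cell types rose as well, as far as they passed the filter. These were 3 of 6 fibroblast markers (median 3.55), with Dcn, for a matrix proteoglycan, at 7.41 and Pdgfra, a growth factor receptor, at 3.55. The 4 macrophage markers that passed, out of 10, rose with a median of 1.83, the adipocyte markers Lpl and Cebpa rose by 5.17 and 2.21, and the epithelial keratin Krt19 rose by 3.35. Of these markers only Pdgfra, Cd14, Lpl and Cebpa were above the 40th percentile on all 3 proliferating control arrays. A marker low there could pass the filter only through other groups, so the filter favoured these rises. The mean level of the 6 fibroblast markers went from between -2.37 and -2.12 on the proliferating to between 0.17 and 0.69 on the quiescent control arrays, and that of the 10 macrophage markers from between -2.74 and -2.58 to between -2.01 and -1.79. The part of all these marker changes in the fall of the subunits and in the isoforms' rise was not tested, and fewer cells of a type cannot be told apart from less RNA per cell.

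**Figure D2:**
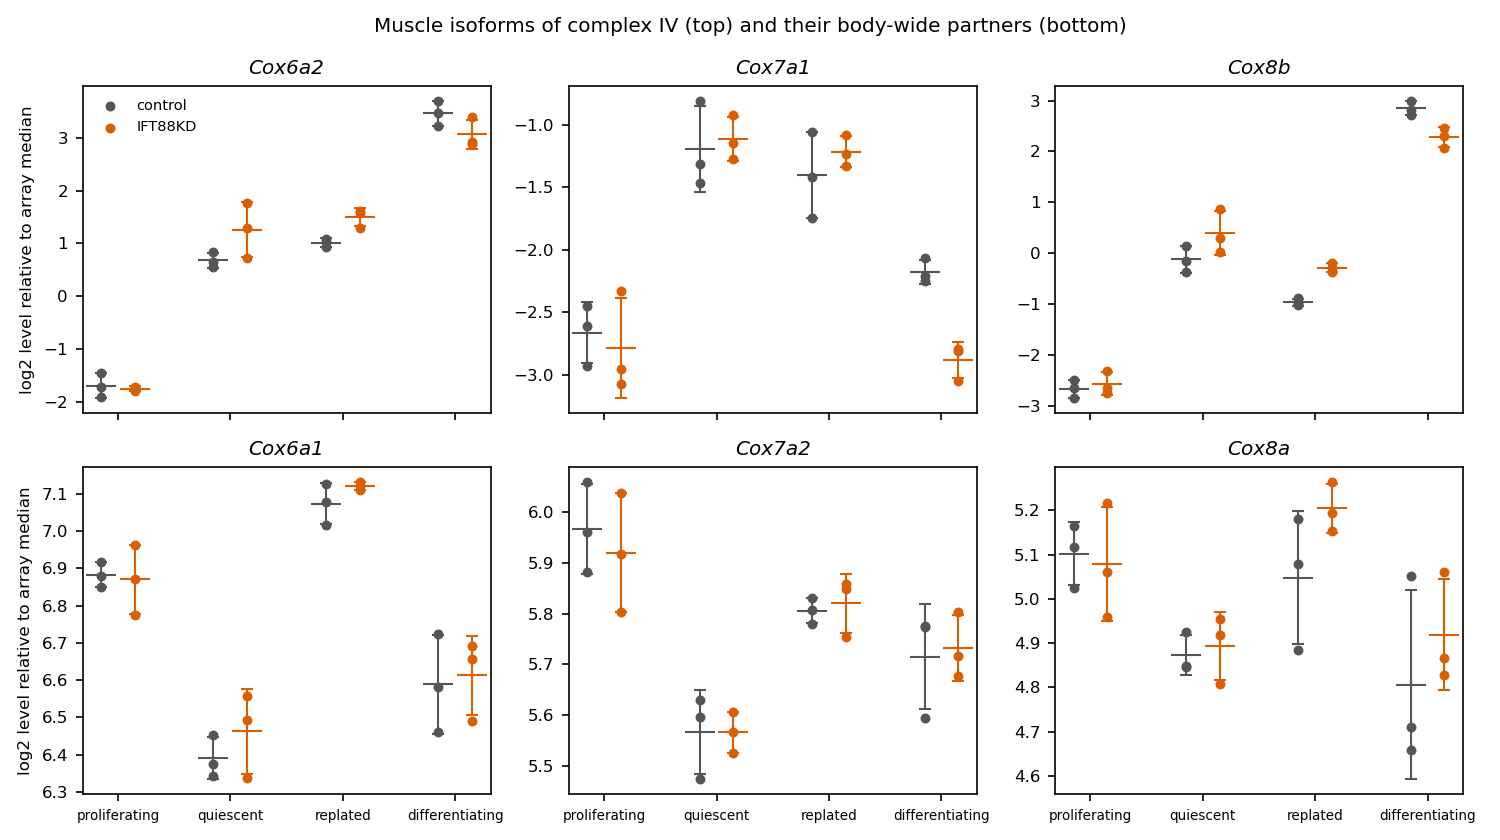
Log2 levels relative to the array median are plotted by state for the muscle isoforms Cox6a2, Cox7a1 and Cox8b (top) and their body-wide partners Cox6a1, Cox7a2 and Cox8a (bottom), with a scale for each gene. Points are arrays, long bars group means and whiskers 1 SD (n = 3). Cox6a2 and Cox8b climb from proliferation to differentiation, while Cox7a1 is highest in quiescent and replated cells.

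IFT88KD cells share no array with control cells, but same-numbered arrays of the 2 siRNAs deviated together, so the changes are not independent. The change of IFT88KD cells to quiescence had the same calls among the members. Again 32 members fell and 5 rose, against 40.8% lower and 28.9% higher among all genes, with a median of -0.45 beside -0.12 for all genes. It was the same 32 and the same 5 members as in control cells, and the remaining 4 were called in neither. Of all 8125 genes 3073 fell and 2158 rose in both siRNAs. Cycs changed by -1.47 (SE 0.12), Cyc1 by -1.14, Ndufa4 by -1.05, Ndufs4 by -0.96, Sdhb by -0.83 and Ndufa5 by -0.83. Cox6a2 rose by 3.0, Cox8b by 2.96, Cox7a1 by 1.67, Ndufa6 by 0.59 and Ndufa1 by 0.26. Under all 4 scalings at once 20 members fell and the same 5 rose. As deposited, after quantile normalisation and with centring on the 8125 genes, 20, 22 and 21 fell, against 30.5%, 36.3% and 32.6% of all genes. The 5 rises stood against 39.3%, 33.3% and 37.3%.

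The difference of the 2 siRNAs in this change was not called for any member, against 1.34% of all genes. Cox6a2 changed by 0.64 more in IFT88KD cells (SE 0.27, adjusted p = 0.468).

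**Figure D3:**
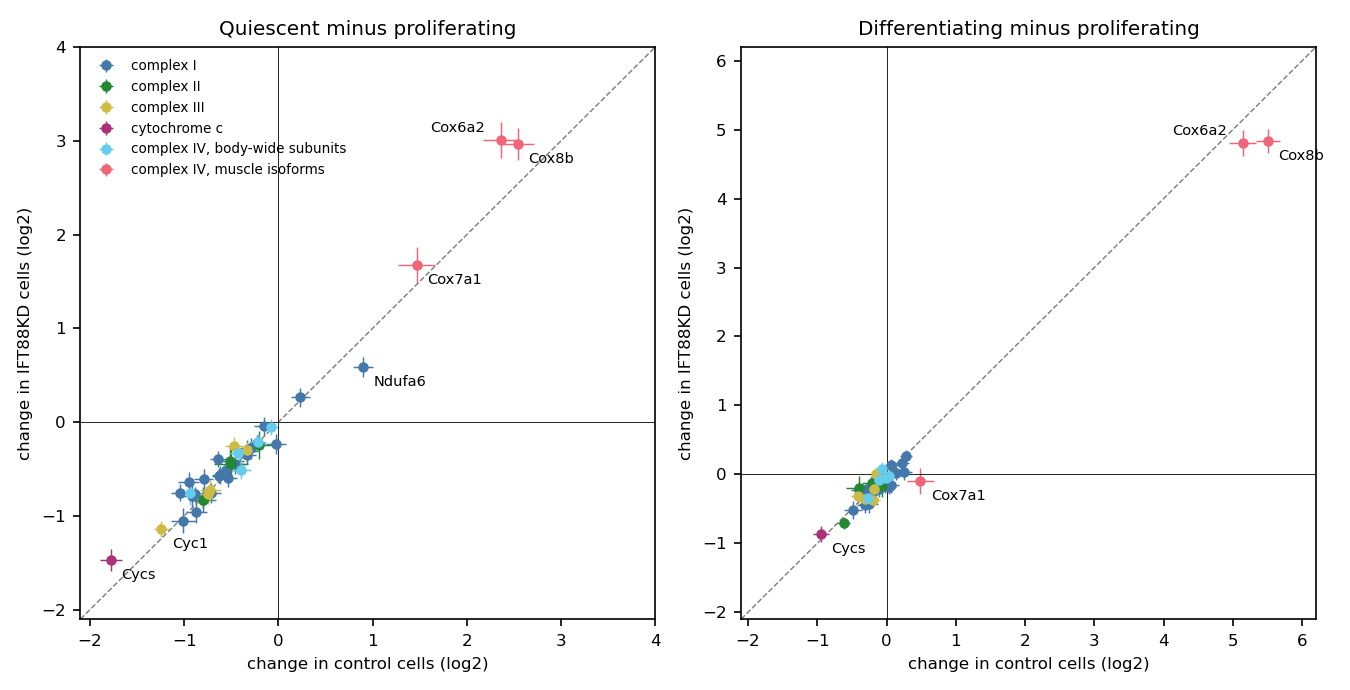
Each point is 1 subunit, with its log2 change in control cells on the horizontal and in IFT88KD cells on the vertical axis, coloured by complex, with bars of 1 SE. The dashed line marks equal changes. On the way to quiescence Cycs and Cyc1 lie lowest and the 3 muscle isoforms highest, and in differentiating cells only Cox6a2 and Cox8b stand far from the rest.

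Replating gave changes whose direction depended on the scaling. Relative to the median of all genes, 20 members (48.8%) rose and 7 (17.1%) fell in control cells between quiescence and 2 h after replating, against 51.9% higher and 17.8% lower among all genes. The median was 0.22 for the members and 0.34 for all genes. As deposited 0 rose and 39 fell, where 813 of the 8125 genes rose and 66.8% fell. After quantile normalisation 0 rose and 29 fell, against 29.8% and 34.3%, and with centring on the 8125 genes 7 rose and 17 fell, against 32.7% and 33.1%. The members' medians were then -0.73, -0.37 and -0.13 beside -0.61, -0.05 and -0.01 for all genes. No member rose under all 4 scalings, and 18 had opposite calls under different ones.

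**Figure D4:**
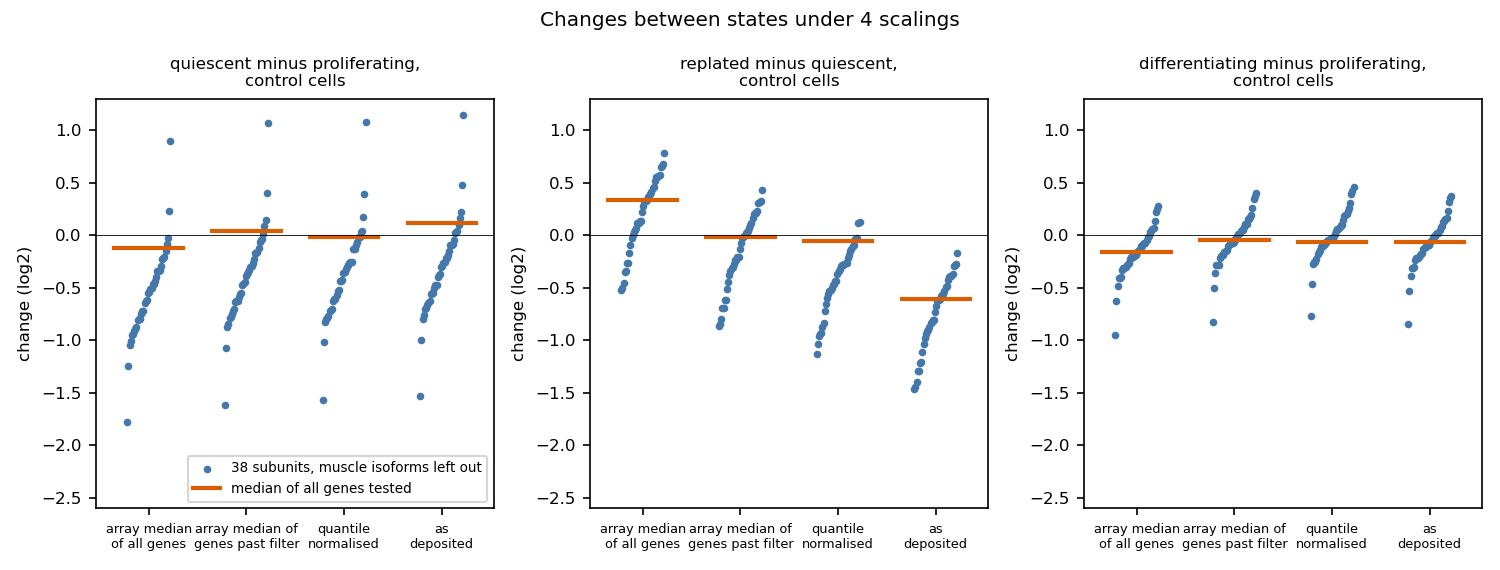
Log2 changes of the 38 subunits other than muscle isoforms in control cells are sorted within each of 4 scalings, for 3 changes between states. The orange bar is the median of all genes tested. For replated minus quiescent cells the points lie mostly above 0 with the median of all genes as reference and all below 0 as deposited, while in quiescence most lie below 0 under each scaling.

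In control cells 7 genes fell under every scaling, namely Ndufa4, Ndufb5, Ndufs1, Ndufv2, Sdhd, Uqcrfs1 and Cox8b. Cox8b went from 0.15, -0.36 and -0.15 to -0.88, -1.01 and -0.98, a change of -0.84 (SE 0.17, adjusted p = 2.00e-04), with all replated arrays below all quiescent ones. Ndufa4 changed by -0.52, Sdhd by -0.50 (adjusted p = 0.0169), Ndufs1 by -0.45, Uqcrfs1 by -0.35 and Ndufb5 by -0.34. Of these Sdhd and Ndufb5 were not called without control quiescent replicate 2 (adjusted p = 0.0617 and 0.0562), and Sdhd, Uqcrfs1 and Ndufb5 were not called without control replated replicate 3 (adjusted p = 0.141, 0.0638 and 0.0895). Other probe sets went the opposite way for 2 of the 7 genes, with changes of 0.35 for Ndufb5 and of 0.41 and 0.35 for Ndufv2, where the probe sets used had -0.34 and -0.27. With probe sets averaged Ndufb5 was not called (-0.17, adjusted p = 0.0552).

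The other complex II genes changed by -0.27 (Sdha, adjusted p = 0.123), 0.33 (Sdhb, adjusted p = 0.00243) and -0.03 (Sdhc, adjusted p = 0.881) relative to the median of all genes. With replicate numbers as blocks, which paired these 2 control groups, Sdha was called (adjusted p = 0.0216). Cycs changed by 0.28 (adjusted p = 0.0417), Cox6a2 by 0.33 (adjusted p = 0.125) and Cox7a1 by -0.21 (adjusted p = 0.348). The rises past the threshold on that scale included Ndufb7 (0.78), Ndufa5 (0.68), Ndufa2 (0.66), Cyc1 (0.65), Ndufs8 (0.58) and Ndufv1 (0.56). As deposited all 6 had the opposite sign, from -0.38 to -0.17.

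In IFT88KD cells 18 members rose and 2 fell on replating, against 51.0% higher and 18.6% lower among all genes. The other scalings gave 0 rises and 39 falls as deposited, against 10.5% and 66.7% of all genes, 0 and 25 after quantile normalisation, against 29.5% and 34.1%, and 4 and 16 with centring on the 8125 genes, against 30.6% and 33.9%. Ndufs1 (-0.39) and Cox8b (-0.68) fell under every scaling. With replicate numbers as blocks, which paired these groups too, Ndufv2 (adjusted p = 0.0469) and Sdhd (adjusted p = 0.0375) also fell and Cycs rose (adjusted p = 0.0411). The difference between the siRNAs in this change was called for 0 members, against 0.0246% of all genes.

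In differentiating cells the muscle isoforms Cox6a2 and Cox8b rose far more than any other member. In control cells 4 members rose and 11 fell from proliferation to 48 h of differentiation, against 20.3% higher and 38.7% lower among all genes, and the median change was -0.15 for the members and -0.16 for all genes. Falls made up 26.8% of the members. As deposited 6 rose and 6 fell, against 24.6% higher and 31.4% lower among all genes. After quantile normalisation 7 rose and 3 fell, against 24.7% and 31.4%, and with centring on the 8125 genes 7 and 6, against 26.3% and 30.2%. Cox6a2, Cox8b and Ndufs3 rose and Sdhb, Uqcrfs1 and Cycs fell under all 4 scalings.

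Cox8b reached 2.82, 2.99 and 2.72 and Cox6a2 3.69, 3.46 and 3.22 on the differentiating control arrays. No other state came near these levels for either gene. The rises over proliferation were 5.50 for Cox8b (SE 0.17, adjusted p = 9.45e-16) and 5.14 for Cox6a2 (SE 0.19, adjusted p = 1.92e-14). Proliferating signals were under the 40th percentile on every control array for Cox8b and on 2 of 3 for Cox6a2, so the size of these rises is less certain than their direction. Here too the filter favoured rises, and both were also called without it.

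Cox7a1, the third isoform, did not follow them. Its differentiating control arrays were at -2.07, -2.21 and -2.25, all under the percentile and below every quiescent control array. Its rise over proliferation was 0.49 (adjusted p = 0.036) and was lost in 5 of 6 fits with 1 array left out and after quantile normalisation (adjusted p = 0.104). In IFT88KD cells it changed by -0.10 (adjusted p = 0.696).

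The partners Cox6a1 (-0.29, adjusted p = 0.00578), Cox7a2 (-0.25, adjusted p = 0.0122) and Cox8a (-0.30, adjusted p = 0.0207) fell relative to the median of all genes in differentiating control cells. All 12 myotube markers rose, with a median of 5.12, to a mean level of 4.82 to 5.07 on these arrays, and the part of this in the rise of Cox6a2 and Cox8b was not tested.

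Cycs stayed below its proliferating level in differentiating cells. It was at 4.68, 4.50 and 4.51 on the control arrays, between the quiescent and the proliferating ones, with a change of -0.94 (SE 0.12, adjusted p = 7.44e-07). Sdhb was at 4.12, 3.94 and 3.83, a change of -0.62 (SE 0.09, adjusted p = 3.72e-06). Neither gene's arrays overlapped those of proliferating cells. The other complex II genes changed by -0.40 (Sdhd, adjusted p = 0.0594), -0.21 (Sdha, adjusted p = 0.25) and -0.07 (Sdhc, adjusted p = 0.712).

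Ndufa4 (-0.48), Uqcrfs1 (-0.41), Ndufb5 (-0.40) and Ndufv2 (-0.33) also fell. The call of Ndufv2 was lost as deposited (adjusted p = 0.0541), after quantile normalisation (adjusted p = 0.125) and with centring on the 8125 genes (adjusted p = 0.0638). Its other 2 probe sets had changes of 0.12 and 0.10, and the mean of the 3 gave -0.0018. Ndufa4 and Ndufb5 were not called after quantile normalisation (adjusted p = 0.0855 and 0.0617). Ndufs3, an iron-sulfur arm subunit of complex I, rose by 0.28 (adjusted p = 0.00866), and without control differentiating replicate 1 its adjusted p was 0.0531. None of the 5 members listed as body-wide complex IV subunits was called, while Ndufa4, now assigned to that complex, is listed with complex I. Replicate numbers paired these 2 control groups, and with them as blocks 15 members fell in place of 11, where 40.4% of all genes did. Sdhd (adjusted p = 0.0285), Ndufa9, Ndufs7, Uqcrc1 and Cox5a (-0.27, adjusted p = 0.0414), a body-wide complex IV subunit, were then called, and Ndufa10 was not (adjusted p = 0.0539).

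In IFT88KD cells 3 members rose and 13 fell on differentiation, against 18.4% higher and 37.4% lower among all genes, with medians of -0.18 and -0.16. Cox8b rose by 4.84 and Cox6a2 by 4.80, and Ndufs3 by 0.27. Cycs changed by -0.87, Sdhb by -0.70, Ndufa4 by -0.51, Ndufa8 by -0.45, Ndufa5 by -0.42 and Uqcrc1 by -0.37. Under the other scalings the counts were 5 and 7 as deposited, against 22.7% higher and 29.0% lower among all genes, 6 and 4 after quantile normalisation, against 22.8% and 29.3%, and 5 and 7 with centring on the 8125 genes, against 23.8% and 28.0%. The difference between the siRNAs was called for 0 members, against 0.0369% of all genes. With replicate numbers as blocks it was called for Cox8b alone (-0.66, adjusted p = 0.0276), where 0.578% of all genes were called.

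Few genes were called for IFT88 siRNA, among the members and among all genes tested. In proliferating cells limma called 0 members, against 0.394% of all genes. At an unadjusted p under 0.05 it gave 1 member and 540 of the 8125 genes. In quiescent cells 1 rose and 1 fell (2.4% each), against 3.35% higher and 2.19% lower. In replated cells 2 (4.9%) rose and 1 (2.4%) fell, against 1.76% and 1.23%, and in differentiating cells 0 were called, against 0.135%. The median change of the members was 0.07 in quiescent and 0.10 in replated cells, and 0.0013 in proliferating and -0.03 in differentiating cells. The calls were the same under all 4 scalings.

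The gene that rose in both quiescent and replated cells was Ndufa8. It was at 3.31, 3.06 and 3.14 in quiescent control and at 3.77, 3.69 and 3.56 in quiescent IFT88KD cells. In replated cells the control arrays were at 3.35, 3.21 and 3.04 and the IFT88KD arrays at 3.84, 3.78 and 3.76. The siRNA groups did not overlap in either state. The rises were 0.50 (SE 0.11, adjusted p = 0.00599) and 0.59 (SE 0.11, adjusted p = 0.00268), and the change was 0.19 in proliferating and 0.05 in differentiating cells. With the arrays of the compared groups alone the replated change had an adjusted p of 0.0563.

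Cox6b1, a body-wide complex IV subunit that joins the monomers of the dimeric enzyme, fell. It was at 5.46, 5.39 and 5.43 in quiescent control and at 5.19, 4.90 and 4.72 in quiescent IFT88KD cells, and at 5.88, 5.96 and 6.10 against 5.50, 5.39 and 5.40 in replated cells. Every IFT88KD array lay below every control array of its state, and the same held in proliferating and in differentiating cells. Cox6b1 fell by 0.49 (SE 0.10, adjusted p = 0.00366) and by 0.55 (SE 0.10, adjusted p = 0.00229) on the log2 scale in quiescent and replated cells. With the arrays of the compared groups alone these adjusted p were 0.062 and 0.0555.

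In proliferating cells Cox6b1 changed by -0.38 (adjusted p = 0.153), which was called with replicate numbers as blocks (adjusted p = 0.0475). In differentiating cells it changed by -0.22 (adjusted p = 0.963). Its second probe set gave -0.53 in quiescent, -0.45 in replated and -0.30 in proliferating cells.

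Cox8b rose in replated IFT88KD cells, where it was at -0.19, -0.37 and -0.28 against -0.88, -1.01 and -0.98 in control cells. The groups were well apart, with a rise of 0.68 (SE 0.17, adjusted p = 0.0333). The call was lost when any 1 of these 6 arrays was left out, with adjusted p from 0.0537 to 0.119. In quiescent cells Cox8b changed by 0.52 (adjusted p = 0.09) and in differentiating cells by -0.57 (adjusted p = 0.451).

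**Figure D5:**
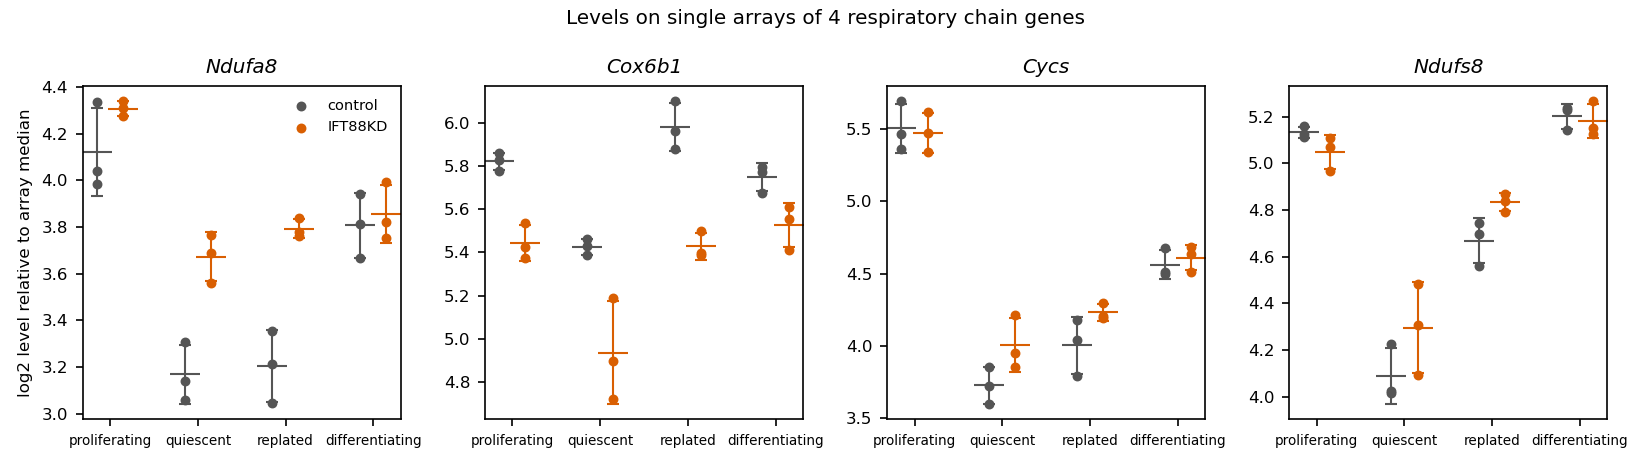
Log2 levels relative to the array median are plotted by state and siRNA for Ndufa8, Cox6b1, Cycs and Ndufs8, with a scale for each gene. Points are arrays, long bars group means and whiskers 1 SD (n = 3). IFT88KD arrays lie above control arrays for Ndufa8 in quiescent and replated cells, and below them for Cox6b1 in all 4 states.

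Arrays of equal replicate number deviated together between the siRNAs, and with the numbers as blocks more members were called. In quiescent cells Ndufa8, Ndufs3, Cycs, Cox6a2 and Cox8b rose and Cox6b1 fell, where 15.2% of all genes were called. In replated cells Ndufa8, Ndufs3, Sdhb, Cox6a2 and Cox8b rose and Cox6b1 fell, where 13.1% were. In differentiating cells Cox7a1 and Cox8b fell, where 1.27% were. The unblocked changes were 0.58 for Cox6a2 in quiescent cells and 0.48 in replated cells, and -0.71 for Cox7a1 in differentiating cells.

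Without blocks, all IFT88KD arrays lay above all control arrays for 11 members in replated cells, against 9.54% of all genes, and below them for 1, against 9.85%. In quiescent cells these numbers were 3, against 13.2%, and 2, against 12.8%. Of the 11, 2 were called, Ndufa8 and Cox8b. The 12 myotube markers had median changes of 0.74 in quiescent, 0.70 in replated, 0.58 in proliferating and -0.25 in differentiating IFT88KD cells, with 2 of them called, both in quiescent cells. The medians of the 3 muscle isoforms beside these were 0.52, 0.48, -0.06 and -0.57. Mean levels of the 12 were 2.13 to 2.76 on quiescent IFT88KD and 1.37 to 1.91 on quiescent control arrays, and their part in the result was not tested. Of the 4 macrophage markers that passed the filter, out of 10, 3 fell in quiescent and 3 in replated IFT88KD cells. Clec10a and Cd68 were above the 40th percentile on all 3 arrays in control groups only, so the filter favoured such falls. Mean levels of the 10 were -2.57 to -2.43 on quiescent IFT88KD and -2.01 to -1.79 on quiescent control arrays. On all 3 quiescent control arrays Cd14, Clec10a and Csf1r of these were above the 40th percentile, on the replated control arrays Cd14, Cd68 and Csf1r, and on the quiescent IFT88KD arrays Cd14 alone. Adgre1, Ptprc and Itgam were under it on every array. The fibroblast marker Pi16 (-0.44) and the epithelial marker Krt19 (-0.98) also fell in quiescent IFT88KD cells, and the adipocyte marker Lpl rose by 1.02 in proliferating ones. The part of these markers in the effects of the siRNA was not tested.

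Other genes that make, build or run the chain were taken from lists by function. Among all genes tested 41.8% fell and 30.5% rose in quiescent control cells, and 30.7% and 41.5% as deposited. ATP synthase, the enzyme driven by the proton gradient, had 13 falls and 0 rises among 16 genes in this change, with a median of -0.60. Atp5g1, for the ring subunit c, changed by -1.38 and Atp5b, for the catalytic beta subunit, by -1.05, and both fell on every scale, as did 9 of the 16 as deposited. Chain subunits outside the 42 had 11 falls and 4 rises among 21, with a median of -0.37, and 8 falls and 6 rises as deposited, against the same shares of all genes. Ndufv3, a complex I subunit, rose by 1.56 (adjusted p = 3.85e-08), from 3.14, 3.51 and 3.82 to 4.99, 5.06 and 5.10.

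Assembly factors, which put the complexes together, had 16 falls and 5 rises among 32, with a median of -0.24, against 41.8% lower and 30.5% higher among all genes. As deposited 12 fell and 6 rose, with a median of 0.00, against 30.7% lower and 41.5% higher. Coa7, a factor for complex IV, changed by -1.53 and Surf1, another, by 1.27. None of these 3 lists held a gene called for IFT88 siRNA except for 1 assembly factor. Among all genes 3.35% rose and 2.19% fell in quiescent cells, the state with most calls. Sdhaf2, which attaches flavin to the Sdha subunit of complex II, fell by 0.73 (SE 0.16, adjusted p = 0.00635) in quiescent, by 0.60 (adjusted p = 0.0409) in replated and by 0.82 (adjusted p = 0.0164) in proliferating IFT88KD cells on the log2 scale.

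For Sdhaf2 the quiescent arrays were at 1.67, 1.45 and 1.72 in control and at 0.98, 0.90 and 0.76 in IFT88KD cells. The siRNA groups were apart in all 4 states, and the change in differentiating cells was -0.48 (adjusted p = 0.591, or 0.0193 with blocks). In replated cells 3 of the 4 scalings gave a call. Sdha itself changed by -0.11 to 0.07 over the 4 scalings and the 4 states.

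Most regulators of mitochondrial genes that passed the filter fell in quiescent control cells. Of 13, 11 fell, 1 rose and 1 was not called, with a median of -0.68, and as deposited 7 fell and 1 rose. Among all genes 41.8% fell and 30.5% rose, and as deposited 30.7% and 41.5%. Pprc1, a relative of PGC-1alpha known for its response to serum, changed by -1.20, Ppargc1b by -1.12, Tfam, which packs and transcribes mitochondrial DNA, by -1.02, and Esrra by -0.69, each of them under all 4 scalings. Nrf1 (-0.39) was called on 2 of the 4. Ppargc1a rose by 2.50 (SE 0.24, adjusted p = 6.48e-09), from -2.75, -2.88 and -3.10 to -0.01, -0.69 and -0.54, and rose under all 4 scalings. Its proliferating signals were all under the 40th percentile, so the size of the rise is less certain than its direction.

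On replating Ppargc1a fell, by 1.09 on the log2 scale (adjusted p = 4.21e-04), and Pprc1 (2.78), Gabpb1 (1.73), a subunit of nuclear respiratory factor 2, and Esrra (1.41) rose, all under each scaling. Tfb1m fell by 1.04. In differentiating control cells Gabpb1 fell by 1.28 on the log2 scale. Ppargc1a changed there by 1.02 (adjusted p = 0.00104), between signals under the 40th percentile on all 3 proliferating and on 2 of 3 differentiating arrays. The replated arrays of Ppargc1a and Tfb1m and the differentiating arrays of Gabpb1 were under it as well, all 3 in each case, so the sizes of these changes are uncertain. None of the 13 regulators was called for IFT88 siRNA in any state. The calls among all genes reached 3.35% higher and 2.19% lower, in quiescent cells.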

How the data were processed

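RNA extracted with TRIzol from the 24 samples, 8 ug each, was labelled and hybridised, per the labels' protocols. The authors deposited 1 table of log2 values for 22690 probe sets, made with GCOS, Affymetrix Expression Console and affy, per the submitters' processing notes. Versions, the method of normalisation and whether it covered all 4 states at once are not given in the sources used here, so changes between states carry any difference of scale.

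Of the probe sets 20393 were assigned to 1 gene, 691 to several, and 29 of those of 1 gene had a gene that the reference names lack. For 2 members, Ndufs8 and Cox5b, the chosen probe set was of a kind (x_at) that can also bind similar transcripts. Each array was centred on its median over all 12394 genes, and all 24 arrays were fitted in 1 model with a coefficient per group (limma 3.58.1, R 4.3.3). Benjamini-Hochberg adjustment of p-values covered the 8125 genes above the 40th percentile on at least 3 arrays. No 2 arrays held identical values, and the highest correlation of 2 was 0.998.

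The members and lists were chosen with earlier results of these data known. For each comparison the text names up to 6 called members with the largest change in either direction, complex II, cytochrome c, the muscle isoforms, their partners, the regulators and up to 3 called genes of each other list. Members outside this rule are named as examples chosen after their values were seen.

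Same-numbered arrays of the siRNA groups deviated together from their group means, with correlations of 0.261 to 0.723 beside 0.144 at most for other numbers, so the numbers pair the siRNA groups of a state. They also pair replated with quiescent cells in both siRNAs and differentiating with proliferating control cells, with correlations of 0.147 to 0.438. The fit given has no blocks. Alternatives were other scalings, filters and probe set rules, a variance trend with robust estimation, the compared groups alone, replicate blocks and leaving out each array. Tested on simulated data for quiescent IFT88KD minus control cells, with 200 of 8125 genes changed, the fit called 58% of genes changed by 0.5 log2, 94% by 1 and 100% by 2, with 10 false calls among 183.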

Additional observations from a re-analysis of the deposited data

Results flagged for a closer look

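The effect of IFT88 siRNA on Cox8b differed between states. It was lower in differentiating than in quiescent cells by -1.09 (SE 0.24, adjusted p = 0.0238) and lower in differentiating than in replated cells by -1.25 (SE 0.24, adjusted p = 0.0209), by the interaction in limma. These pairs of states were chosen after the data were seen. Without blocks Cox8b was the only member called in either pair, against 1.27% and 0.394% of all genes. With replicate blocks 4 members were called in each, and the share of all genes in that fit is not given here. The effect itself was 0.52 in quiescent, 0.68 in replated and -0.57 in differentiating cells, and IFT88KD arrays lay below control arrays in the differentiating state and above them in the replated state.

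For Ndufs8 all 3 IFT88KD arrays lay below the control arrays in proliferating cells (5.11, 5.07 and 4.97 against 5.13, 5.16 and 5.11) and above them in replated cells (4.87, 4.84 and 4.79 against 4.75, 4.56 and 4.70). The difference of the 2 effects was 0.25 (SE 0.13) and was not called (adjusted p = 0.768, or 0.222 with blocks).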

How the results depend on the processing

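The calls for IFT88 siRNA were the same under all 4 scalings, but their number is small. With replicate blocks the falls in proliferating cells went from 0 to 1, the rises in quiescent cells from 1 to 5 and in replated cells from 2 to 5, and the falls in differentiating cells from 0 to 2, and for the difference of effects between differentiating and proliferating cells from 0 to 1. The blocked fit called 1.37%, 8.32%, 6.62%, 0.726% and 0.382% of all genes in these directions, in this order. With the arrays of the compared groups alone quiescent falls went from 1 to 0, replated rises from 2 to 1 and replated falls from 1 to 0. With 1 array left out quiescent rises ranged from 1 to 3 (3 without IFT88KD quiescent replicate 2 and 2 without control quiescent replicate 1), and replated rises were 1 in all 6 fits.

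Changes between states depended on the scaling, as deposited, after quantile normalisation and with centring on the 8125 genes, in this order. Falls in quiescence were 20 as deposited in both siRNAs and 21 in IFT88KD cells with centring on the 8125 genes, in place of 32. Replating gave 0, 0 and 7 rises in place of 20 and 39, 29 and 17 falls in place of 7 in control cells, and 0, 0 and 4 rises in place of 18 and 39, 25 and 16 falls in place of 2 in IFT88KD cells. The median of the members turned from 0.22 to -0.73, -0.37 and -0.13 in control and from 0.23 to -0.69, -0.33 and -0.13 in IFT88KD cells. Differentiating control cells had 7 rises after quantile normalisation and with centring on the 8125 genes in place of 4, and 6, 3 and 6 falls in place of 11. IFT88KD cells had 5, 6 and 5 rises in place of 3 and 7, 4 and 7 falls in place of 13.

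On replating, values as deposited reversed Ndufb7 (-0.17), Ndufa5 (-0.27), Ndufa2 (-0.28), Cyc1 (-0.29), Ndufs8 (-0.37) and Ndufv1 (-0.38) in control cells and Ndufb7 (-0.14), Ndufa2 (-0.20), Cyc1 (-0.25), Cox4i1 (-0.31), Ndufa5 (-0.33) and Ndufs8 (-0.38) in IFT88KD cells. Quantile normalisation reversed Ndufa2 (-0.024), Cyc1 (-0.039), Ndufs8 (-0.095) and Ndufv1 (-0.031) in control and Cox4i1 (-0.058) and Ndufs8 (-0.10) in IFT88KD cells.

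Averaging the probe sets of a gene gave 12 rises on replating in control cells and 6 falls in IFT88KD cells. Robust variances and replicate blocks each gave 4 falls there, and the blocked fit called 19.5% of all genes lower. Shares of all genes are not given for averaging, robust variances, the compared groups alone or arrays left out. Those counts show only how the members' calls moved with the setting. With 1 array left out the falls on replating ranged from 3 (without control replated replicate 3; 4 without control quiescent replicate 2) to 7 in control cells. In IFT88KD cells they ranged from 2 to 4 (4 without IFT88KD quiescent replicate 3 or IFT88KD replated replicate 1). Rises in differentiating control cells ranged from 2 (without control differentiating replicate 1) to 5. Of 66 named results, 370 of 396 fits with 1 array left out kept their call and 26 lost it. The cause of these changes was not tested beyond the construction of each setting. Replicate numbers were also tried as blocks between states, where proliferating and quiescent cells were not paired by them, and Ndufa1 was then not called in quiescent control cells (adjusted p = 0.0549).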

Other observations

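Genes that feed the chain or make its mitochondrial proteins fell in quiescent control cells too. Of 71 proteins of the mitochondrial ribosome, which translates the subunits encoded in mitochondrial DNA, 62 fell and 2 rose, with a median of -0.68, against 41.8% lower and 30.5% higher among all genes. As deposited 49 fell and 3 rose, against 30.7% and 41.5%. In differentiating control cells 52 of the 71 fell and 0 rose relative to the median of all genes, with a median of -0.44, against 38.7% lower and 20.3% higher among all genes. As deposited 44 fell and 1 rose, against 31.4% and 24.6%. On replating the counts were 25 rises and 18 falls, against 51.9% higher and 17.8% lower among all genes, and as deposited 0 rises and 67 falls, where 813 of the 8125 genes rose and 66.8% fell.

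Of 17 genes of the TCA cycle and pyruvate dehydrogenase, 14 fell and 1 rose in quiescent control cells, with a median of -0.73, and as deposited 10 fell and 1 rose. Among all genes 41.8% fell and 30.5% rose, and as deposited 30.7% and 41.5%. Idh3a, the catalytic subunit of the NAD-dependent isocitrate dehydrogenase, changed by -1.85 (adjusted p = 3.87e-10) and by -0.96 in differentiating control cells. Pcx, the pyruvate carboxylase that refills the cycle, rose by 1.59 (adjusted p = 8.14e-08) in quiescent and by 2.60 (adjusted p = 1.75e-10) in differentiating control cells. None of these 17 was called for IFT88 siRNA in any state, where calls among all genes reached 3.35% higher and 2.19% lower, in quiescent cells. Idh3a and Pcx kept their direction and call under all 4 scalings in these 2 state changes.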
